A study of Danio rerio with 416 samples.

Results

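The cytosolic ribosomal protein genes were described in single cells of zebrafish embryos at 50% epiboly, the stage when the cell cap has spread over about the upper part of the yolk and gastrulation begins. Members were chosen by name alone: every row named rpl or rps, followed by a number and optional letters or digits. The RPS6K rows, which are 11 in number and encode kinases of ribosomal protein S6, were left out. This gave 76 of the 25208 rows measured in the full-length libraries, with 44 named for the large subunit and 32 for the small one. In the 5′ libraries 75 of 19205 rows were members, since rps8b had no row there. One of the members, rps19bp1, fits the name pattern but encodes a protein that binds ribosomal protein S19 and is not itself a structural part of the ribosome. The member values below include it, and the median ratio without it was the same to 2 decimals.

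Wild-type cells were compared with MZoep cells. Wild-type fish were of the TLAB line. MZoep embryos carried the tz57 allele of oep (tdgf1, which encodes a co-receptor for Nodal signals) and lacked the gene product of both mother and zygote. Fish of each genotype were incrossed, embryos were raised at 28°C, and single cells were picked by hand from embryos that had been deyolked and mechanically dissociated, a procedure that does not choose a cell type. Full-length SMART-seq2 libraries came from 52 wild-type cells and a larger number of MZoep cells in 4 library preparation batches named p1 to p4. A further 88 MZoep cells in batch p0 had libraries of the 5′ ends of transcripts with unique molecular identifiers (UMIs), which count molecules; no wild-type cells had such libraries. After cells with few genes were left out, the batches p1 to p4 held 3, 14, 18 and 12 wild-type cells (47 in all) and 79, 80, 61 and 25 MZoep cells, and 86 cells with UMIs remained.

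The labels name no embryo or clutch, so each genotype is 1 sample, cells are not replicates, and no test could be made. Differences are therefore given as ratios, beside their spread over the 4 batches and, for most, beside the same measure over all genes. Genotype, strain and clutch cannot be told apart. The 12 blastoderm markers all had rows, and pou5f3 and nanog, pluripotency factors of the early embryo, were at 1 FPKM or more in 100% of kept cells of both genotypes. FPKM, fragments scaled by transcript length and by the mapped total, is a relative unit: the 10 highest rows, led by ac024175.4 with a mean of 227166 FPKM over kept cells, took 58.6% of the summed FPKM in wild type and 56.4% in MZoep. The sequencing depth of the full-length cells was read from the steps of low values, relative to the median cell. In p2 its median was 0.558 for wild-type and 0.734 for MZoep cells. For p1 these medians were 1.38 and 1.19, for p3 1.23 and 1.24, and for p4 1.14 and 1.19. The UMI cells held between 29246 and 73231 UMIs each, with a median of 47194.5.

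A cytosolic ribosome is built from a large subunit, which forms peptide bonds, and a small subunit, which reads the messenger RNA. Each carries one copy of most of its proteins on a scaffold of ribosomal RNA, and the genes for these proteins are usually expressed together in near-balanced amounts. Early zebrafish embryos inherit ribosomes and messenger RNAs from the egg and begin to transcribe their own genome at the mid-blastula transition, before the stage measured here. The ribosomal protein transcripts of vertebrates start with a run of pyrimidines that places their translation under growth control.

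Ribosomal protein genes were among the most abundant transcripts and were found in nearly every cell. Of the 500 rows with the highest mean FPKM, 63 were members in MZoep and 59 in wild type, and 59 of the 500 genes with the most UMIs were members. Fewer stood at the very top: 4 of the 100 highest rows in each genotype, and 6 of the 100 genes with the most UMIs. Detection at 1 FPKM or more reached at least 95% of cells in both genotypes for 73 members. The median cell of each genotype had 75 of the 76 members at this level. The poorest kept cell had 55 in wild type and 30 in MZoep. Detection was not counted in this way over other genes of like level.

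Among the small subunit genes, rps20, whose protein sits in the head of the subunit, had the highest level of all members in both library types. Its weighted mean over batches was 437 FPKM in wild-type and 512 in MZoep cells. Over the wild-type cells rps20 was lowest at 43.6, had a median of 390 and was highest at 1511 FPKM, and over the MZoep cells the same 3 values were 0, 476 and 1842 FPKM. The cells of the genotypes overlapped over almost the whole range. Another small subunit gene of high level, rps12, had means of 272.4 (wild type) and 318 FPKM (MZoep). At the low end, rps26l had means of 57.7 (wild type) and 65.9 FPKM (MZoep), and rps19bp1 had 47.9 and 60.6 FPKM.

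Among the large subunit genes, rpl12, whose protein lies at the base of the stalk that recruits translation factors, had a mean of 382 FPKM over wild-type and 285 FPKM over MZoep cells. It was the highest large subunit gene in wild type but not in MZoep, where rpl15 led with 326 FPKM, against 275.7 FPKM in wild type. For rpl18, another protein of the large subunit, the means were 312 (wild type) and 266.4 FPKM (MZoep). The lowest levels belonged to rpl22l1, at 17.1 (wild type) and 29.3 FPKM (MZoep), followed by rpl36 at 39.1 and 48.01, rpl5a at 50.1 and 55.7, and rpl35 at 53.2 and 67.3 FPKM. The lowest and the highest of the 75 measured members thus spanned the range from 29.3 to 512 FPKM in MZoep. Across the members, the Spearman correlation of mean FPKM between wild type and MZoep was 0.966 for means over batches. Within the single batches p2 to p4 it was 0.928 to 0.958, and between pairs of MZoep batches 0.953 to 0.966. These correlations compare the same genes, each with its own length and base composition, in both groups, and they are a description.

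**Figure D1:**
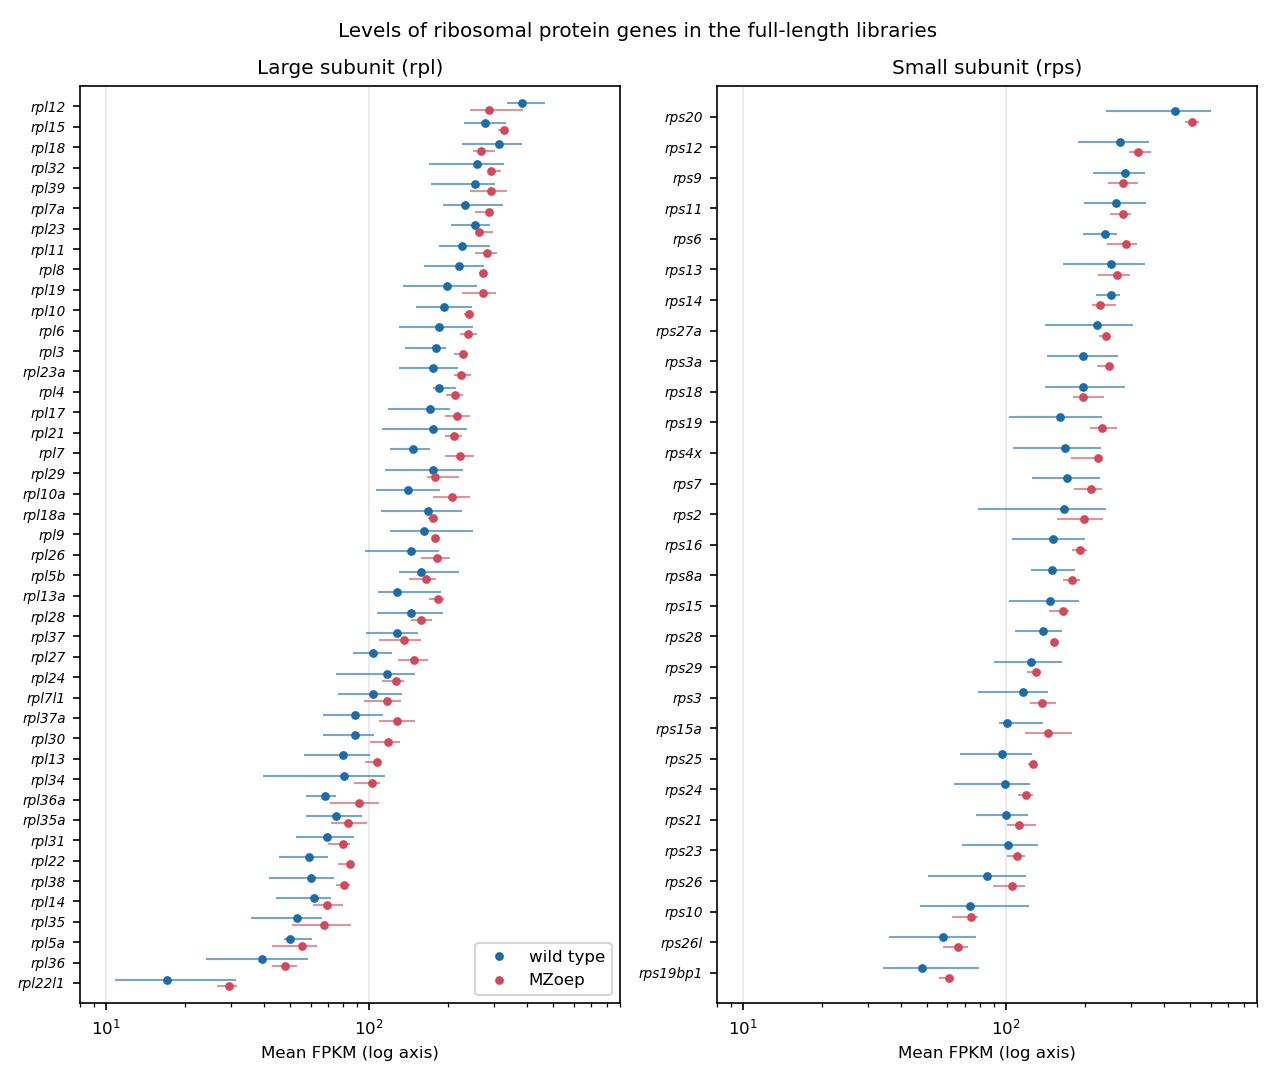
Mean FPKM of measured ribosomal protein genes, a few of which are not shown (log axis), in wild type (blue) and MZoep (red), large subunit on the left and small subunit on the right, ordered by the mean of both genotypes. Dots are means weighted over the 4 batches and lines run from the lowest to the highest batch mean; rps20 is highest at 437 and 512 FPKM and rpl22l1 lowest at 17.1 and 29.3 FPKM.

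The single member that was hardly seen was rps8b. Every one of the 47 wild-type cells had it at 0, for which the exact (Clopper-Pearson) interval reaches up to 7.55% of cells. It reached 1 FPKM in 4 kept MZoep cells (1.63%, with an exact interval of 0.447% to 4.13%). Its highest value was 9.90 FPKM. No ratio is given for it. Its partner rps8a, which carries the same ribosomal protein of the small subunit, had means of 150 (wild type) and 178.2 FPKM (MZoep) and was detected in every kept cell. In MZoep, rps8b took 0.0470% of the summed level of both.

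Taken as a whole, the members made up 2.07% of the summed FPKM of a wild-type cell and 2.44% of that of an MZoep cell, as means weighted over batches. The batch means ran from 1.60% to 2.43% in wild type (SD over 4 batch means 0.371) and from 2.34% to 2.57% in MZoep (SD 0.104), so the genotypes overlapped. Wild type p2 stood apart. Its 14 cells lay between 1.19% and 1.87%, with a median of 1.64%, while the 80 MZoep cells of p2 lay between 1.02% and 3.06%, with a median of 2.33%. The means of wild type and MZoep were 2.33% and 2.39% in p1, 2.43% and 2.57% in p3, and 2.05% and 2.37% in p4. Wild type was thus lower in each batch, but outside p2 the gap was smaller than the SD over the cells of either genotype in that batch.

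Other values also differed between the genotypes within p2. The 10 highest rows took 57.8% of the summed FPKM in wild type p2 and 53.5% in MZoep p2. Their batch means ran from 53.3% to 61.1% in wild type and from 53.5% to 58.7% in MZoep. For this share MZoep p2 was thus the lowest of its genotype, and wild type p2 lay inside the range of its own. The relative depth given above had its lowest median in wild type p2. Without the 10 highest rows the members' share was 3.80% in wild type p2 and 5.03% in MZoep p2, so the gap was present in both ways of scaling. Over the 14 wild-type cells of p2 the Spearman correlation of the members' share with relative depth was -0.18, and with the share of the 10 highest rows -0.79. In the other groups of at least 6 cells the former ran from -0.40 (MZoep p3) to 0.23 (MZoep p2). The latter ran from -0.59 (MZoep p4) to 0.10 (wild type p3). Both shares are parts of one total, so a negative correlation between them is partly built in. The part of depth in the result was not tested. Over all batches, the share outside the 10 highest rows was 5.10% in wild type and 5.60% in MZoep.

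**Figure D2:**
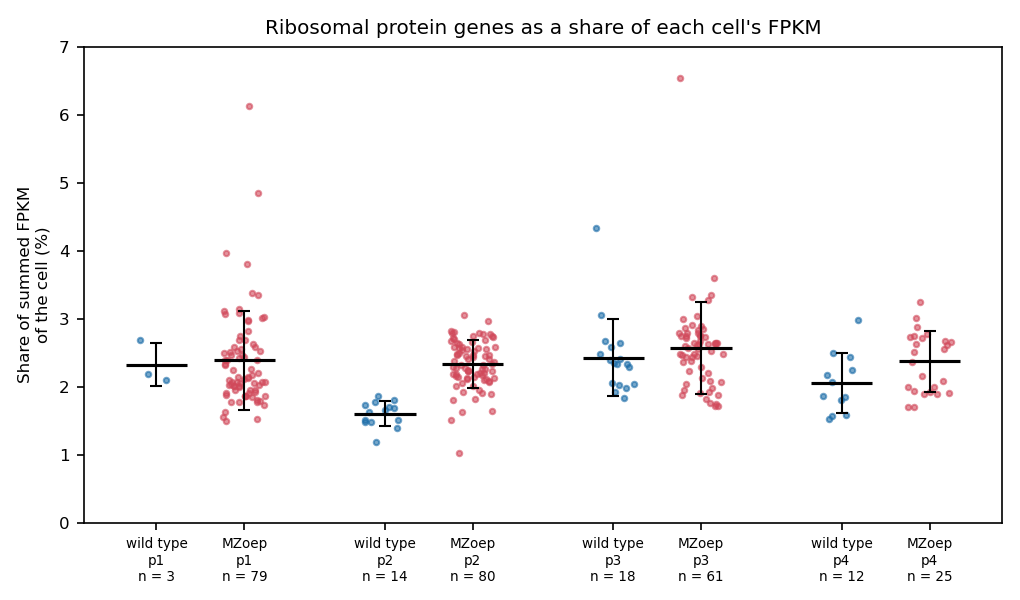
Share of the summed FPKM of each cell that belongs to ribosomal protein genes, in percent, by batch and genotype; each point is a cell, the horizontal bar is the mean and the error bar is the SD over cells. The 14 wild-type cells of p2 lie at or below 1.87%, under most of the MZoep cells of the same batch.

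Gene by gene, no measured member reached 2-fold in either direction between the genotypes. Of all 15831 measured genes, 5.15% were at least 2-fold higher and 2.54% at least 2-fold lower in MZoep. Large changes are rarer among abundant genes: of the 1129 genes with both means of at least 40 FPKM, a level chosen after the members' levels were known, 0.443% and 0.886% were past 2-fold. The members' log2 ratios of MZoep over wild type ran from -0.42 to 0.74, and 74 of 75 lay within 0.5 of the median member. How many genes of like level lie that close to their median was not counted.

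The median log2 ratio of the 75 measured members was 0.25, and 0.12 over all measured genes. A higher mean in MZoep was found for 70 of 75 members (93.3%), against 60.6% of all measured genes and 56.3% of those at 40 FPKM or more in both genotypes. The excess was uneven over batches. Within p2 the member median was 0.63 and 73 of 75 members were higher in MZoep, where 62.4% of all genes were. In p1 the member median was 0.0022 with 38 of 75 higher, against 59.6% of all genes. For p3 these values were 0.04 and 46 of 75, against 66.9%, and for p4 they were 0.20 and 63 of 75, against 49.3%. The members thus stood above all genes in p2 and p4 and below them in p1 and p3. Beside genes of like level the order differed. The 1129 genes at 40 FPKM or more in both genotypes, members included, had medians of -0.16, 0.21, 0.018 and 0.0045 in p1 to p4. The member median was above these in each batch, by little in p3. With p2 left out, the member median was 0.12, the all-gene median also 0.12, and 50 of 75 members (66.7%) were higher against 60.3% of all genes. The median of the other genes at 40 FPKM or more was then -0.02, and with all batches it was 0.02. With p3 left out, the member median was 0.38 and the all-gene median 0.07.

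The large subunit members had a median log2 ratio of 0.30 and the small subunit members one of 0.23, and with p2 left out these were 0.17 and 0.05. The balance between the subunits was close in both genotypes: the summed FPKM of large over small subunit members was 1.23 in wild type (SD over 4 batch means 0.0673) and 1.24 in MZoep (SD 0.0282). Over cells within a batch, the 2 sums rose and fell together. Their Spearman correlation was between 0.81 and 0.96 in the 7 groups of genotype and batch with at least 6 cells, as a description of values that share each cell's scaling.

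**Figure D3:**
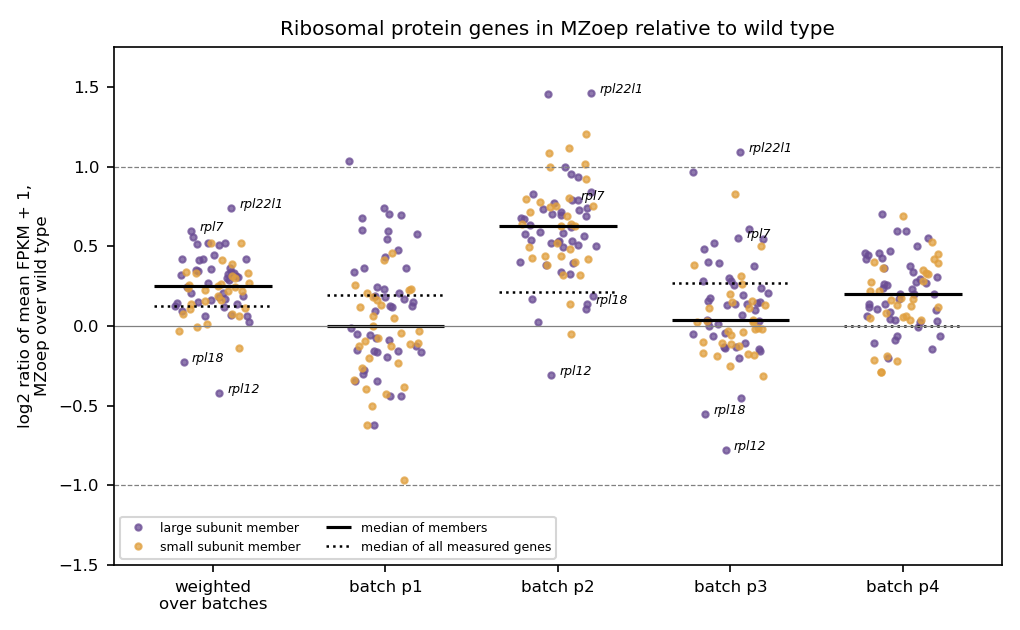
Log2 ratio of mean FPKM + 1 in MZoep over wild type for each of the 75 measured members, weighted over batches and within each batch, coloured by subunit. Solid bars are the member medians (0.25 weighted, 0.63 in p2), dotted bars the medians of all measured genes, and dashed lines mark 2-fold; the members sit above the all-gene median in p2 and p4 and below it in p1 and p3.

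Some members held their direction in each batch. In all 4 batches, 21 of 75 members (28.0%) were higher in MZoep, against 16.4% of all measured genes. Among those with the highest ratios was rpl7, a protein of the large subunit. Its batch means in wild type were 129.2, 120.3, 171.01 and 149.2 FPKM in p1 to p4, and in MZoep they were 216.5, 208.6, 251.2 and 194.1 FPKM. No wild-type batch mean reached the lowest MZoep one. The log2 ratio of rpl7 was 0.60, with 0.74, 0.79, 0.55 and 0.38 in p1 to p4 (SD 0.19). Over single cells rpl7 was lowest at 0, had a median of 123.05 and was highest at 419 FPKM in wild type, and at 39.97, 214.03 and 763 FPKM in MZoep, so the cells of the genotypes overlapped.

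Of the other members with the highest ratios, rpl10a had a log2 ratio of 0.56, with within-batch values between 0.34 and 0.84. Its protein belongs to the L1 stalk, where transfer RNA leaves the ribosome. The ratio was 0.52 for rps15a and rpl37a, proteins of the small and the large subunit, and each of these was also higher in MZoep in all 4 batches. For rps19, whose human counterpart is mutated in Diamond-Blackfan anaemia, the ratio was likewise 0.52, but it ran from -0.13 in p1 to 1.02 in p2.

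The largest ratio of all was that of rpl22l1, the paralogue of rpl22, and it was uneven over batches. Its batch means in wild type were 31.2, 10.8, 12.96 and 28.6 FPKM in p1 to p4, and in MZoep 30.9, 31.6, 28.7 and 26.5 FPKM. MZoep was thus higher in p2 and p3 and level with wild type in p1 and p4. The log2 ratio was 0.74, with -0.02, 1.46, 1.09 and -0.10 within p1 to p4 (SD 0.79), and 1.06 with p4 left out. Its share of cells at or above 1 FPKM was 78.7% for wild type (exact interval 64.3% to 89.3%) and 93.5% for MZoep (89.6% to 96.2%). This share also depends on depth. The intervals treat cells pooled over batches as independent, so they do not measure a difference between the genotypes.

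In the other direction, rpl12 was the only member lower in MZoep in all 4 batches, where 4.58% of all measured genes and 8.41% of those at 40 FPKM or more were. Batch means of rpl12 in wild type were 468, 335, 416 and 361 FPKM in p1 to p4, and in MZoep 387, 271.004, 241.8 and 345 FPKM. Batches overlapped between the genotypes, though wild type was higher in each. The log2 ratio of rpl12 was -0.42, with -0.27, -0.31, -0.78 and -0.07 within p1 to p4 (SD 0.30), and -0.21 with p3 left out. Over wild-type cells rpl12 was lowest at 99.7, had a median of 346 and was highest at 1134 FPKM, and over MZoep cells it was 81.9, 283 and 1310 FPKM.

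Besides rpl12, the lowest ratios were small. For rpl18 the log2 ratio was -0.23, but it was 0.14 within p2 and -0.55 within p3, and with p3 left out it was 0.0035. The ratio of rps14, whose loss contributes to the human 5q- syndrome, was -0.14, from 0.23 in p1 to -0.25 in p3. For rps9, rps18 and rps10 it was -0.03, -0.01 and 0.01, and the within-batch values of each lay on both sides of 0. In size, the ratio exceeded the SD of the 4 within-batch ratios for 23 of the 75 members, and the median of that SD was 0.33. The same count was not made over other genes, so it does not set the members apart from them.

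The other genes of the translation apparatus were read from lists of names. Of the ribosomal components that the name pattern misses, such as the stalk proteins rplp0, rplp1 and rplp2 and the laminin receptor homologue rpsa, 11 of 14 names had rows. Their median log2 ratio was 0.32, none was past 2-fold, and 9 of 11 had a higher mean in MZoep, against 60.6% of all measured genes. In this list rplp0 had a ratio of 0.51 (0.32 to 0.61 within batches), whereas rplp2 had -0.35 and ran from 0.34 in p1 to -0.61 in p4. The median was 0.15 over 46 measured translation factors, of which 1 was at least 2-fold higher (eif4ea, a cap-binding protein, 1.11) and 1 at least 2-fold lower (pabpc1b, a poly(A)-binding protein, -1.36). Within p1 to p4 the ratio of eif4ea was 0.74, 1.09, 0.80 and 2.33, whereas that of pabpc1b was 0.35, -0.46, -2.39 and 0.94, and pabpc1b reached 1 FPKM in 19.1% and 13.9% of wild-type and MZoep cells. Over 39 ribosome biogenesis genes it was 0.14, with none past 2-fold. The 76 genes for proteins of the mitochondrial ribosome, a separate machine, had a median of 0.22, with 6 past 2-fold, all of them higher in MZoep, where 5.15% of all measured genes were 2-fold higher and 2.54% 2-fold lower.

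Markers of other cell types also differed between the genotypes. The summed FPKM of 14 enveloping layer markers had a mean of 303 in wild type (batch means 280 to 341) and 701 in MZoep (313 to 908). The median cells lay closer together, at 238.75 and 374.33 FPKM, and the highest MZoep cell, in p3, had 19740.4 FPKM. By median cell this sum was higher in MZoep within p1, p2 and p3, but lower within p4 (310.81 in wild type and 266.56 in MZoep). The summed FPKM of 10 maternal transcripts was 428 (360 to 531) and 526 (477 to 625). A single gene held most of the maternal sum, with 313 FPKM in wild type and 332 in MZoep. The maternal sum was higher in MZoep within p1, p2 and p3, but lower within p4 (531 in wild type and 478 in MZoep). The 12 blastoderm markers summed to 2038 (1905 to 2301) and 2582 FPKM (2282 to 2697). For 8 germ cell markers the means were 62.01 and 112.3, but the median cells were alike at 58.5 and 57.97 FPKM, and the highest MZoep cell, in p2, had 5884 FPKM. For 8 names used as yolk syncytial layer markers, 1 of which (apoeb) held nearly all of the sum, the sum was 516 (442 to 611) and 598 (486 to 691). Gene by gene this list did not go 1 way. Of its 7 measured names, 3 had a higher mean in MZoep and 4 a lower one, against 60.6% of all measured genes higher. Their median log2 ratio was -0.0062. Within batches, the Spearman correlation over cells of the members' sum with the enveloping layer sum lay between -0.23 and 0.35. With the blastoderm sum it lay between 0.12 and 0.56, with the maternal sum between -0.36 and 0.22, and with the germ cell sum between -0.31 and 0.17. With the yolk syncytial layer sum it was 0.25, 0.52, 0.42 and 0.40 in the MZoep batches p1 to p4, and between -0.07 and 0.21 in the wild-type batches p2 to p4. The part of these markers in the members' ratios was not tested.

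Paralogue pairs were read as the share of the second gene in the summed level of both. Near-identical stretches of paralogues can share reads, and how the authors' estimation divided these is not known, so the shares are uncertain to that extent. For rpl5, whose protein carries 5S ribosomal RNA into the large subunit and can bind the p53 regulator Mdm2, rpl5b took most of the pair in each library type. Its share was 75.8% in wild type (72.4% to 78.4% over batches) and 74.7% in MZoep (72.6% to 76.9%). The ranges of the genotypes overlapped. In the UMI cells rpl5b took 82.96% of the pair's UMIs (exact interval 81.1% to 84.7%, counting error only), and it was the higher of the pair in 83 of 86 cells.

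For the pair of rpl7 and rpl7l1, the latter a relative whose yeast counterpart acts in the assembly of the large subunit, the share of rpl7l1 was 41.4% in wild type and 34.5% in MZoep. Over batches it ran from 37.7% to 47.2% in wild type and from 31.4% to 40.6% in MZoep, and it was lower in MZoep within each batch, by the least in p1 (37.7% and 37.1%). The mean of rpl7l1 itself was 103.6 (wild type) and 116.9 FPKM (MZoep), with a log2 ratio of 0.17, so that rpl7 had the larger difference of the pair. In the UMI cells the share of rpl7l1 was 34.9% (33.4% to 36.4%).

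The share of rpl22l1 in the pair with rpl22 was 22.5% in wild type and 25.8% in MZoep. It ranged widely over the wild-type batches, from 15.6% in p3 to 40.02% in the 3 cells of p1, and narrowly over the MZoep batches, from 24.7% to 28.7%. Since rpl22 itself had a log2 ratio of 0.51 and was higher in MZoep in all 4 batches, both genes of the pair had higher means there. The UMI cells gave rpl22l1 a share of 27.5% (25.3% to 29.7%). For rps26, which lies at the exit of the messenger RNA channel, the copy rps26l took 40.5% in wild type (30.8% to 44.6% over batches), 38.5% in MZoep (34.2% to 42.4%) and 46.1% of UMIs (44.1% to 48.03%). Over the 86 UMI cells the Spearman correlation between the partners of a pair was between 0.04 and 0.14. In the MZoep full-length batches p2 to p4 it lay between -0.13 and 0.28 for these 4 pairs, and in the smaller wild-type batches it spread from -0.41 to 0.63, both for rpl7 and rpl7l1.

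**Figure D4:**
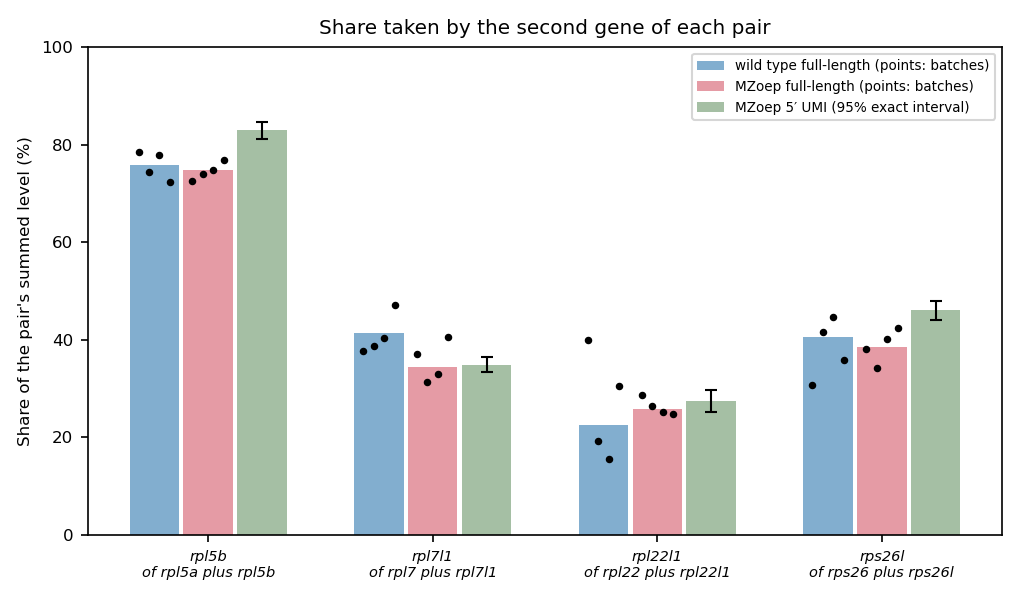
Share of the second gene of each paralogue pair in the summed level of the pair, in percent, in wild-type and MZoep full-length libraries (bars weighted over batches, points for p1 to p4) and in MZoep 5′ UMI libraries (bars with exact 95% intervals of the summed UMIs). The rpl5b gene takes 74.7% to 82.96% of its pair, and the share of rpl22l1 is spread from 15.6% to 40.02% over the wild-type batches.

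Over MZoep cells of a batch, most members followed the sum of the others only in part. Their Spearman correlation with that sum, as a mean over the 4 batches, had a median of 0.42 over 75 members and a highest value of 0.58. The lowest was that of rps19bp1, at 0.05, which is not a structural protein. After it came rpl22l1 at 0.15, rpl10 at 0.27, rpl5b at 0.29 and rpl34 at 0.30. Over single batches rpl10 ran from 0.14 to 0.39, rpl5b from 0.18 to 0.35 and rpl34 from 0.16 to 0.46, so their order is uncertain. All these values share each cell's scaling and are a description. Among the members named, rpl22l1 was the lowest in level. In contrast rpl10, whose protein joins the large subunit late and is needed for the subunits to meet, was abundant at 240.7 FPKM in MZoep and was detected in every cell. The order was not the same in the UMI cells, where the lowest correlations were those of rps25 (0.08), rps10 (0.08), rpl6 (0.14), rps19bp1 (0.14) and rpl22l1 (0.15), and rpl10 had 0.36.

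The coefficient of variation (CV) of FPKM over MZoep cells of a batch had a median of 0.46 over members. Among the lowest were rps9 at 0.34, rps14 and rpl15 at 0.36 and rps20 at 0.38. The highest were rpl22l1 at 1.04, rps10 and rpl5a at 0.69, and rpl35a and rpl34 at 0.68, all with means of at most 102.9 FPKM in MZoep. Between the MZoep batches the highest batch mean was 1.22 times the lowest for the median member. This reached 1.67 for rpl35 and 1.60 for rpl12, followed by rpl36a (1.55), rps15a (1.51) and rps2 (1.49). For rpl12 and rps15a the spread between batches of 1 genotype was thus as large as or larger than the difference between the genotypes.

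In the MZoep UMI cells the members took 4.36% of the UMIs of a cell (SD over cells 0.745, n = 86), from 2.38% in the lowest cell to 7.03% in the highest, with a median of 4.24%. They held 177428 of 4059995 UMIs. A UMI was found in every cell for 65 of the 75 members. Each cell's share was unrelated to its UMI total in rank (Spearman -0.03). The large subunit members held 1.19 times the UMIs of the small subunit members (SD over cells 0.102), and the subunit sums had a Spearman correlation of 0.84 over cells. This share cannot be set beside the share of FPKM, since UMIs count 5′ ends and FPKM is divided by transcript length.

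The order of members agreed in large part between the library types, with a Spearman correlation over 75 members of 0.79 between MZoep mean FPKM and CPM (the UMIs of a gene over all cells, scaled to a common total). The clearest exception was rpl6, a protein of the large subunit. Its mean of 237.9 FPKM in MZoep put it at rank 22 of 75 in the full-length libraries, whereas 120 CPM (exact Poisson interval 109.5 to 131.1) put it at rank 73. Per cell it had between 0 and 20 UMIs, with a median of 5, and 80 of 86 cells had at least 1. The other members that lost most ranks were rpl4 (from 30 to 58), rpl15 (3 to 27), rpl12 (10 to 31) and rpl18 (16 to 36). Ranks were gained most by rpl37 (from 50 to 13), rpl36a (63 to 30), rpl29 (40 to 14), rps19 (23 to 2) and rps28 (46 to 26). Full-length FPKM is divided by transcript length and 5′ UMIs are not, and the dependence of these ranks on transcript models or start sites was not tested.

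**Figure D5:**
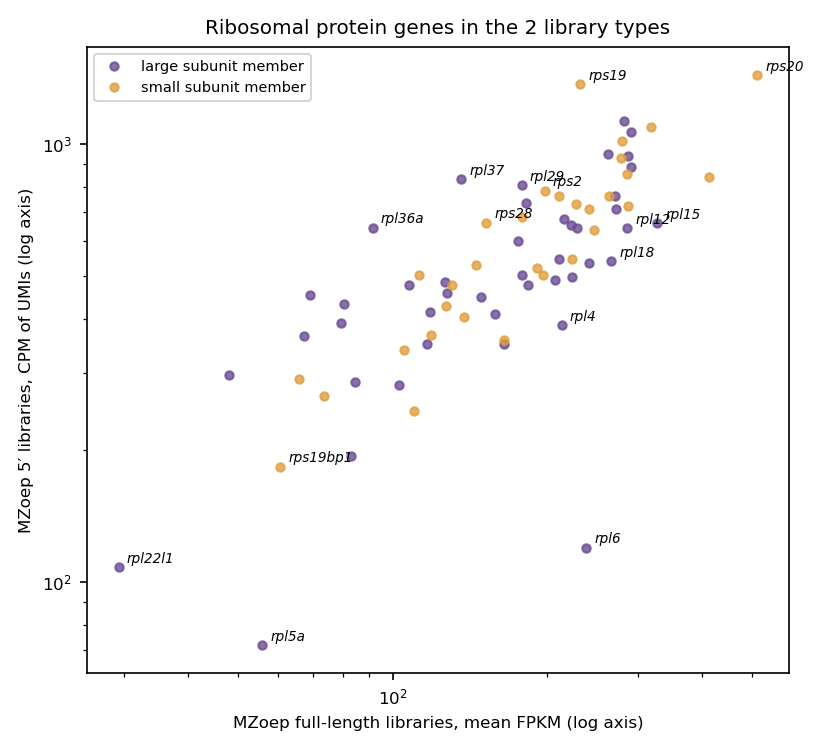
Mean FPKM in the MZoep full-length libraries against CPM of UMIs in the MZoep 5′ libraries for the 75 members with rows in both tables, on log axes and coloured by subunit. Most members lie along a diagonal; rpl6 lies far below it at 237.9 FPKM and 120 CPM, and rps19 and rps20 are highest in UMIs.

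Counts of UMIs also showed how far a member varied between cells beyond counting. The dispersion index, the mean squared deviation from the count that each cell's UMI total predicts, divided by that count, is near 1 for counting error alone. Its median over members was 3.68, and all 75 were above 2. For 510 other genes of like level (284 to 937 CPM) the median was 3.11. That band spans the members' 10th to 90th percentile of CPM, and the share of its genes above 2 was not counted. An index above 2 is therefore not shown to be particular to the members. Among the members, the lowest was that of rpl3, 2.27, whose protein reaches towards the peptidyl transferase centre. The highest was that of rps2, 12.1, and it was 11.1 without its highest cell. Its protein lies near the entrance of the messenger RNA channel, and it had a median of 31.5 UMIs per cell and a CV beyond counting error of 0.55. By comparison rps14 (730 CPM, against 784 for rps2) had a median of 34 UMIs per cell and a CV beyond counting error of 0.21. Of further members of a like level, rpl29 (807 CPM) had 0.21. For rps13, rps7 and rpl19 (763 CPM each) this CV was 0.25, 0.29 and 0.32. In the MZoep full-length cells rps2 did not lead in the same way. Its CV of FPKM within batches was 0.54 there, against a member median of 0.46 and a highest of 1.04.

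The members' sum rose and fell with other genes of protein synthesis over the UMI cells. Its Spearman correlation was 0.73 with the summed other ribosomal components, 0.74 with translation factors and 0.63 with ribosome biogenesis genes. With mitochondrial ribosomal proteins it was 0.31. It was -0.56 with 10 maternal transcripts, 0.58 with the yolk syncytial layer names led by apoeb, 0.13 with blastoderm markers, 0.18 with the enveloping layer list and -0.0034 with germ cell markers. In the MZoep full-length cells a single gene of the maternal list had 332 of the list's summed 526 FPKM. The part of single genes in the maternal correlation was not tested. In the MZoep full-length batches the correlation with the maternal list was not as steady, from -0.36 in p3 to 0.21 in p4. All of these are shares of one total within a cell and are given as a description.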

How the data were processed

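Full-length values were deposited as FPKM per gene and cell, and 5′ values as UMI counts per gene and cell, both made by the authors. Bowtie2, RSEM and build GRCz10 are named in the submitters' processing notes; no source used here gives versions, annotation or UMI collapsing. The deposited count table also has 328 all-zero columns for the full-length cells, which were set aside. Members and gene lists were chosen with earlier results of these data known.

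Full-length cells were kept from 1500 genes upwards (FPKM 1 or more) and UMI cells from 500; 5 wild-type, 31 MZoep and 2 UMI cells were left out. Mean FPKM per batch was averaged over batches with weights shared by the genotypes and set by cell numbers (p1 7.85%, p2 32.4%, p3 37.8%, p4 22.03%), and the log2 ratio is that of FPKM plus a pseudocount of 1, so differences of low genes are understated. Genes counted as measured if 5% or more of the cells of a genotype reached FPKM 1 (15831 genes). Exact intervals (95%) cover counting error only. Those for shares of cells treat the cells, pooled over batches, as independent draws, although cells are not replicates. Relative depth came from 7100 genes, of whose 556422 values above 0, 112649 lay within 10% of 1 step and 46660 of 2 steps, against 18036 halfway on the log scale. The contrast and the depth estimate were tested on simulated data. The simulated depth used whole reads, and the simulated batch factors were the same for both genotypes. The simulations therefore do not cover estimated reads or a batch shift in 1 genotype alone. A few genes that enter the counts are not reported by name here. Members named in the text are those highest or lowest in level, ratio, correlation, CV, rank change and spread between batches, and the paralogues. The members rpl3, rpl19, rps7, rps13 and rps25 and genes of the other lists were named after their values were seen. The labels do not say whether wild-type and MZoep cells of a batch were prepared side by side. No doublet caller was run and no cells were clustered. Python 3.11.15, numpy 2.4.6, pandas 2.3.3 and SciPy 1.17.1 were used.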

Additional observations from a re-analysis of the deposited data

How the results depend on the processing

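The members' median log2 ratio stayed above 0 in all 18 alternatives tried, from 0.12 (p2 left out) to 0.38 (p3 left out). It was 0.17 with the 10 highest rows left out. After subtracting the median of all measured genes it was 0.13 over all batches, but -0.0037 with p2 also left out. No member was 2-fold lower in any of the 18 alternatives. The number at least 2-fold higher was 1 with means of log2(FPKM + 1) (rpl22l1), 1 with no filter on cells (rps25, log2 ratio 4.61) and between 0 and 1 with 1 batch left out (rpl22l1 without p4). With the 10 highest rows left out and the rest rescaled, the members' share was 5.10% in wild type and 5.60% in MZoep. With a batch left out, the wild-type share lay between 1.85% and 2.30% and the MZoep share between 2.36% and 2.48%. The share of rpl5b in wild type was 78.8% as a mean of the shares of single cells. Of 608 values of 38 named members over 16 alternatives, 602 moved by less than the SD of the 4 within-batch ratios. This is a wide margin, since the ratio exceeded that SD for only 23 of 75 members, and a ratio could change sign within it. The sign held in 9 of the 16 alternatives for rps10 and rps9 and in 11 for rpl29 and rps18. It held in all 16 for rpl7 and rpl12. The setting without rps19bp1 (median 0.25; 4.34% of UMIs) and that with cells of at least 70 members (median 0.26) were chosen after seeing the data. The cause of these shifts was not tested. No paired analysis was possible because each genotype is 1 sample and no test was made. In p1, 3 wild-type cells limit every within-batch value, and depth is known only in relative terms.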
